A study of Rattus norvegicus with 24 samples.

Results

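The 9 genes described here, Adora2a, Drd2, Tac1, Penk, Pdyn, Rgs9, Pde10a, Adcy5 and Ppp1r1b, are known from the medium spiny neurons of the striatum. They were chosen with their differences between a 24 h and an 8 h profile of these data already in view. All probes annotated with one of the 9 symbols were kept, which gave 10 probes of the 22523 in the table, 2 for Ppp1r1b and 1 for each other gene. The table named 13337 genes in all.

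The tissue was labelled as right cortex and came from male Wistar rats, and its total RNA was profiled on 24 Illumina rat expression beadchip arrays. Treatment rats had the middle cerebral artery permanently closed by cautery and received the Aurora kinase inhibitor ZM447439 (30 mM in 80% DMSO) into a cerebral ventricle. Vehicle rats had the same closure and 80% DMSO, and sham rats had the operation without the closure, with no injection stated for them. Each of these 3 conditions was sampled at 24 h and at 8 h, with 4 arrays per group, of which each of 2 slides carried 2. Whether each array is a separate animal is not stated. The labels place the closure on the left and the tissue on the right, and which of them is meant is not settled by the sources used here.

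Medium spiny neurons are GABA-releasing cells and form most of the neurons of the striatum, which lies beneath the cortex. Those of the direct pathway carry the dopamine receptor encoded by Drd1 and release substance P and dynorphin, whereas those of the indirect pathway carry the receptors encoded by Drd2 and Adora2a and release enkephalin. Both kinds pass dopamine and adenosine signals through cAMP to the phosphatase inhibitor DARPP-32. Several of the 9 genes are not restricted to these cells: Tac1, Penk and Pdyn, for example, are also transcribed in other neurons of the forebrain.

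The deposited intensities did not hold a separate measurement of each gene on each array. With each array scaled to a median of 1, the 12 columns of 24 h departed from their common profile by at most 2.87e-07 (log2) at any of the 22523 probes, and the 12 of 8 h by at most 2.97e-07. Within a time point the columns were therefore 1 profile multiplied by 1 factor per array, and they were counted as 1 profile. No response of the 9 genes to the inhibitor or to the occlusion could be read from them, and the 24 h minus 8 h difference carries no replicate error and no test. Which arrays or conditions stand behind each profile is not given, so time, occlusion and treatment cannot be told apart in it. Levels below are multiples of the array median, which makes 1 the level of the middle probe, and no background was subtracted. The array medians themselves ran from 76.8 to 115 intensity units at 24 h and from 65.3 to 90.1 at 8 h. The 1st percentile of all probes lay at 0.697 in the 24 h profile and 0.693 in the 8 h profile. All 10 probes of the striatal genes stood at 2.00 or more in both profiles. The dimmest of them lay above 69.8% of all probes at 24 h and 69.3% at 8 h, so a level of 2.00 is not rare. The 75th percentile of all probes was 2.80 at 24 h and 2.91 at 8 h. Genes were counted as past a set size where the profiles differed 1.5-fold or more.

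Adora2a (probe ILMN_1364931) encodes an adenosine receptor that raises cAMP and is abundant on indirect-pathway neurons. At 24 h its deposited intensity was 1629, 1857, 1631 and 1596 on the treatment arrays, 2077, 2116, 1609 and 1524 on the vehicle arrays, and 1414, 1671, 1508 and 1431 on the sham arrays. At 8 h it was 620.4, 695, 527 and 505 on the treatment arrays, 697, 669.8, 612 and 594 on the vehicle arrays, and 647, 603, 652 and 576 on the sham arrays. All 12 columns of 24 h stood above all 12 of 8 h, as was true of 6.07% of all named genes. Such a separation, here and for the genes below, follows from the profile difference and the array factors. It is not support from 12 separate measurements. The order of the arrays within a time point was the same for every probe, since it is the order of the array factors. Divided by the array median, Adora2a stood at 18.4 in every 24 h column and 7.73 in every 8 h column.

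**Figure D1:**
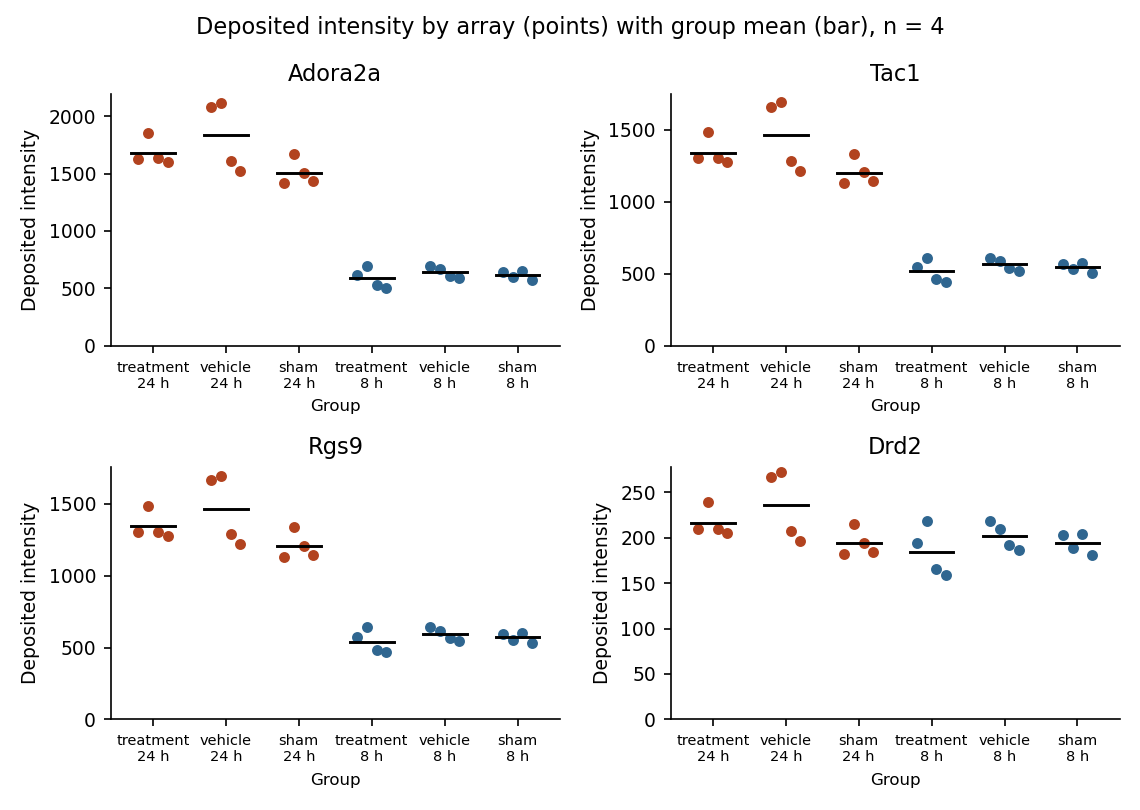
Deposited intensity (y axis, linear, from 0) of Adora2a, Tac1, Rgs9 and Drd2 by group (x axis), with 1 point per array and the mean of the 4 arrays as a bar. The pattern of points within a time point repeats in every panel because it is the array factor, and the step between 24 h and 8 h is present for the first 3 genes, whereas the Drd2 points of the times overlap (182 to 272 at 24 h, 158 to 219 at 8 h).

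The 2 receptor genes differed from each other. Adora2a was 2.38-fold higher in the 24 h profile, a log2 difference of 1.25, and ranked 14 among the 22523 probes. Drd2 (ILMN_1360430), the inhibitory dopamine receptor of indirect-pathway neurons and of midbrain dopamine cells, had intensities of 182, 208 and 272 (lowest, median and highest of the 12 columns) at 24 h, and 158, 193 and 219 at 8 h. Its columns overlapped between the times. Its level was 2.37 times the median at 24 h and 2.43 at 8 h, a log2 difference of -0.04, and the sign turned to 0.04 after cyclic loess and to 0.02 with scaling to the 75th percentile.

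Among the 3 peptide precursors, Tac1 differed most. Tac1 (ILMN_1371400) encodes the precursor of substance P and neurokinin A, and its intensity was 1129.6, 1293 and 1690.0 (lowest, median, highest) at 24 h, against 445, 543 and 614 at 8 h. No 24 h column of Tac1 reached down to the 8 h range. The level was 14.7 times the median at 24 h and 6.81 at 8 h, which is 2.16-fold or 1.11 log2, rank 21 of all probes. Penk (ILMN_1352410), the enkephalin precursor of indirect-pathway neurons, had intensities of 1950.0, 2232 and 2917 at 24 h and 1143, 1394 and 1577 at 8 h. The 24 h columns of Penk also lay wholly above those of 8 h. This held for 6.07% of all named genes and restates the profile difference. Its level was 25.4 at 24 h and 17.5 at 8 h, a 1.45-fold difference (0.54 log2) just short of the size counted. Under 4 of 5 other scalings it passed that size, the highest value being 1.53-fold. Pdyn (ILMN_1358069), the dynorphin precursor of direct-pathway neurons, ran from 196 to 293 at 24 h with a median of 224, and from 142 to 196 at 8 h with a median of 173. Those ranges met at 196. Its level was 2.55 at 24 h and 2.18 at 8 h, a log2 difference of 0.23.

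The 4 signalling genes ran from 0.07 to 1.05 log2. Rgs9 (ILMN_2040239) encodes a GTPase-activating protein whose brain splice form shortens G protein signalling in the striatum. Its intensity was 1133, 1297 and 1695 (lowest, median, highest) at 24 h and 466, 568 and 643 at 8 h, with no overlap. The level of Rgs9 was 14.7 times the median at 24 h and 7.14 at 8 h, 2.07-fold or 1.05 log2, rank 26 of all probes. Pde10a (ILMN_1361915), the phosphodiesterase that breaks down cAMP and cGMP in medium spiny neurons, had intensities of 1204, 1379 and 1802 at 24 h against 802, 977 and 1106 at 8 h. Those columns did not overlap. As for Rgs9, this restates the profile difference, and 6.07% of all named genes had all 24 h columns above those of 8 h. The Pde10a level was 15.7 at 24 h and 12.3 at 8 h, a log2 difference of 0.35. Adcy5 (ILMN_1366363), the main adenylyl cyclase of the striatum, had intensities of 443, 507 and 662 at 24 h and 331, 404 and 457 at 8 h, and its ranges overlapped narrowly. Its level was 5.76 at 24 h and 5.07 at 8 h, a log2 difference of 0.18.

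Ppp1r1b encodes DARPP-32 itself and was measured by a pair of probes that lay far apart in level. The brighter probe (ILMN_2040370) had intensities of 3175, 3635 and 4750.4 at 24 h and 2578, 3144 and 3556 at 8 h, with overlap. Its level was 41.3 times the median at 24 h and 39.5 at 8 h, a log2 difference of 0.07. The dimmer probe (ILMN_2039038) stood at 2.01 at 24 h and 2.00 at 8 h, a difference of 0.00, with intensities from 154 to 231 at 24 h and from 131 to 181 at 8 h. Neither probe of this gene approached the step seen for Adora2a, Tac1 and Rgs9.

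**Figure D2:**
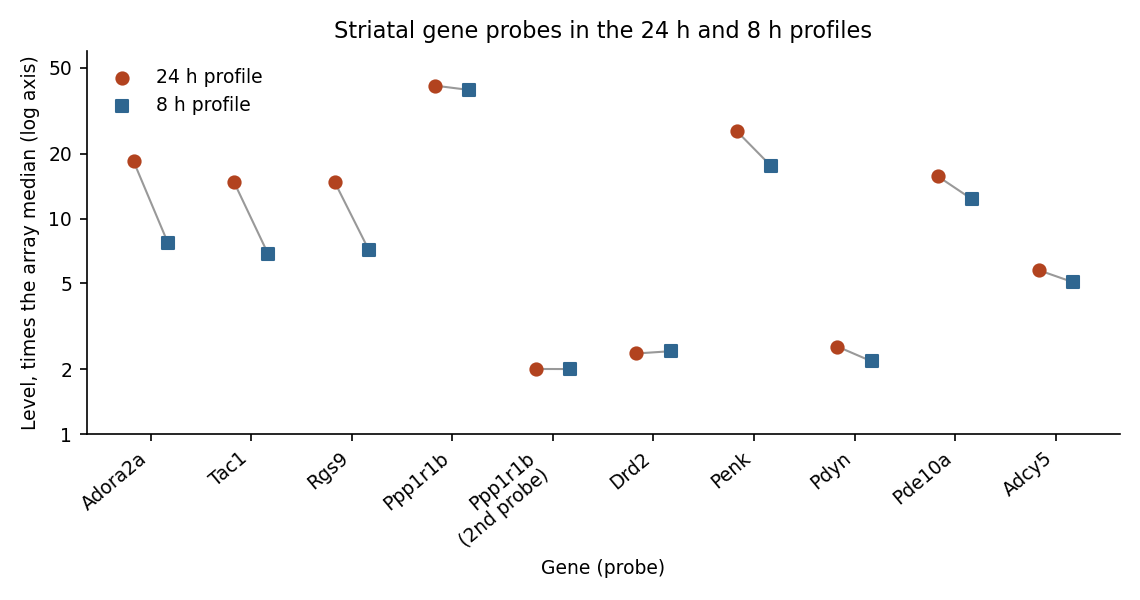
Level in the 24 h profile (circles, left) and the 8 h profile (squares, right) for each of the 10 probes, as multiples of the array median on a log axis, with a line joining the profiles of a probe. There is 1 value per profile and no error bar, and levels of different probes are not comparable with each other. The lines are steep for Adora2a (18.4 at 24 h, 7.73 at 8 h), Tac1 and Rgs9 and nearly flat for both Ppp1r1b probes and Drd2.

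Represented by the brighter Ppp1r1b probe, 8 of the 9 genes were higher in the 24 h profile by any amount, and 3 of the 9 by at least 1.5-fold. Over all named genes, 45.1% were higher by any amount, 54.9% lower by any amount, and 0.907% higher by at least 1.5-fold. Because the genes were selected on this contrast, these shares are given side by side and nothing is read from them. The median over the 9 was 0.35 log2, beside -0.01 over all 13337 genes, and the 9 ran from -0.04 to 1.25. The size counted was reached by 1 of 2 receptors, 1 of 3 peptide precursors and 1 of 4 signalling genes. By pathway it was reached by 1 of 3 indirect-pathway genes (Adora2a, with Penk at 0.54 and Drd2 at -0.04), 1 of 2 direct-pathway genes (Tac1, with Pdyn at 0.23) and 1 of the 4 genes of both kinds of neuron (Rgs9). The indirect-pathway genes alone spanned the whole range of the 9. In this bulk tissue a changed number of cells and a changed amount of RNA per cell cannot be told apart.

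**Figure D3:**
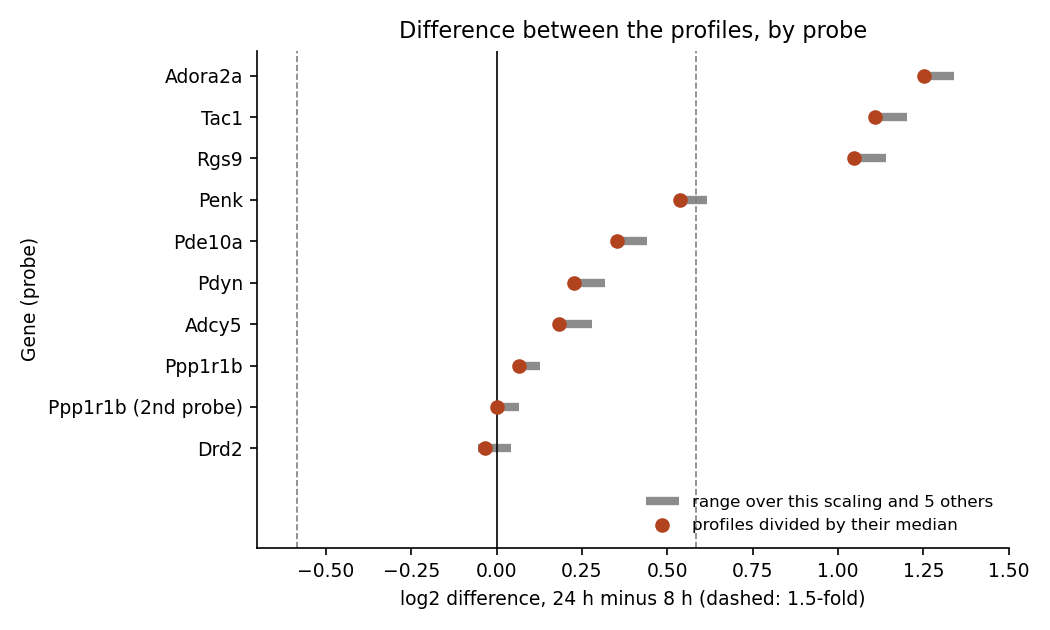
The log2 difference, 24 h minus 8 h (x axis), for each of the 10 probes (y axis), as a point for profiles divided by their median and a grey bar for the range over that scaling and 5 others. Dashed lines mark 1.5-fold. Adora2a, Tac1 and Rgs9 lie beyond 1.5-fold under all of these scalings, the bar of Penk crosses the line (0.54 to 0.62), and the bar of Drd2 crosses 0 (-0.05 to 0.04).

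Other genes known from striatal projection neurons showed a mixed difference. The 9 genes were selected on this contrast, so a smaller difference in this list than in the 9 is not a result. This list held 41 genes that are not among the 9, of which 26 had a named probe, and the other 15 were not analysed here. Of the 26, 15 were higher and 11 lower at 24 h, 2 of them at least 1.5-fold higher and 0 at least 1.5-fold lower. Over all genes, 45.1% were higher, 0.907% at least 1.5-fold higher and 0.682% at least 1.5-fold lower. Their median was 0.09 log2. In the 20 that stood at 1.5 times the array median or more in both profiles, the median was 0.18 with 13 higher, beside -0.08 over the 5896 genes at such levels, of which 34.9% were higher. The retinoid receptor gene Rxrg had a level of 6.44 at 24 h and 3.42 at 8 h, a difference of 0.91. The homeobox gene Meis2 stood at 6.78 and 4.51 at 24 h and 8 h (0.59), and the actin cross-linker gene Actn2 at 4.88 and 3.50 (0.48).

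Drd1, the dopamine receptor that defines the direct pathway, was also above its 8 h level in the 24 h profile, with 3.10 at 24 h and 2.23 at 8 h, a difference of 0.48. The G protein subunit genes that couple this receptor to adenylyl cyclase in the striatum were Gnal, at 2.44 at 24 h and 1.86 at 8 h (0.39), and Gng7, at 6.38 and 5.20 (0.29). The small GTPase gene Rasd2 differed by 0.20, the sodium channel subunit gene Scn4b by 0.21 and the phosphodiesterase gene Pde1b by 0.19. On the opposite side stood Arpp21, a phosphoprotein gene shared with the cortex, at 10.5 at 24 h and 14.3 at 8 h (-0.44), the tyrosine phosphatase gene Ptpn5 (-0.19) and the muscarinic receptor gene Chrm4 of direct-pathway neurons (-0.13). Rarb, a retinoic acid receptor gene, had a bright probe at a difference of -0.01 and a dim probe at 0.53 (1.78 times the median at 24 h, 1.23 at 8 h).

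Of 16 measured dopamine, adenosine, opioid and tachykinin receptor and peptide precursor genes, 8 were higher and 8 lower at 24 h, near the 45.1% higher of all genes, with a median of -0.01. At least 1.5-fold differences were found for 0 on the higher and 1 on the lower side, the dim gene Drd4. The shares over all genes were 0.907% and 0.682%. Drd1, which is on this list too, had the highest difference. Adora1, the inhibitory adenosine receptor gene, stood at 7.91 at 24 h and 8.22 at 8 h (-0.06), while Adora2b stood at 1.91 and 1.56 (0.29). The tachykinin precursor gene Tac3 (neurokinin B) differed by -0.07 and the nociceptin precursor gene Pnoc by -0.03. Tac1, at 1.11, was selected on this contrast, so its larger difference beside these relatives is not a result. The substance P receptor gene Tacr1 stood at 1.78 at 24 h and 1.93 at 8 h (-0.12). The opioid receptor genes Oprm1 and Oprd1 lay below the array median in both profiles, at 0.832 and 0.884 at 24 h and 0.863 and 0.867 at 8 h. So did Drd3 at 0.801 and 0.816, whereas Drd4 stood at 0.875 at 24 h and 1.46 at 8 h and Drd5 at 1.01 and 0.934.

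Of 40 measured genes of the general cAMP and DARPP-32 signalling machinery, 12 were higher and 28 lower at 24 h, beside 45.1% higher and 54.9% lower over all genes. In the 31 at 1.5 times the array median or more in both profiles, 9 were higher and 22 lower, near the 34.9% higher of all genes at such levels. Of the 40, 0 passed 1.5-fold in either direction, beside 0.907% of all genes on the higher and 0.682% on the lower side. The median was -0.10. The largest differences on the lower side were those of the cAMP phosphodiesterase gene Pde4b (3.13 at 24 h, 4.54 at 8 h, -0.54), the cAMP-responsive transcription factor gene Crem (3.72 and 5.14, -0.47) and the kinase anchor gene Akap5 (2.26 and 2.83, -0.33). The catalytic kinase subunit gene Prkaca differed by -0.32, the calcineurin subunit gene Ppp3ca by -0.27 and the kinase gene Cdk5 by -0.31. The regulatory subunit gene Prkar2b, at 14.7 at 24 h and 12.1 at 8 h (0.28), lay on the other side with Gnal, the furthest on that side (0.39), and Gng7. Among relatives of the 9, Rgs7, of the same RGS subfamily as Rgs9, differed by -0.25, and the 7 measured adenylyl cyclase genes other than Adcy5 included Adcy2 (-0.13), Adcy3 (-0.16) and Adcy8 (-0.20).

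Markers of other cell types and regions are given beside the shares over all genes, of which 54.9% were lower at 24 h. Of the genes at 1.5 times the array median or more in both profiles, 34.9% were higher. Cortical projection neuron genes were lower in 9 of 10 measured members (median -0.29), with the vesicular glutamate transporter gene Slc17a7 at 8.39 at 24 h and 10.6 at 8 h (-0.34) and the deep-layer transcription factor gene Fezf2 at 5.95 and 7.35 (-0.30). Pan-neuronal genes were lower in 10 of 11 (median -0.16). GABA neuron and interneuron genes were lower in 7 of 9 (median -0.10), including Vip (-0.33), Pvalb (-0.31) and Sst (-0.17), while the GABA-synthesising enzyme genes Gad1 and Gad2 differed by -0.10 and 0.15. Oligodendrocyte genes were lower in 7 of 7 (median -0.39).

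Hypothalamus and choroid plexus genes were mostly higher in the 24 h profile, and most thalamus genes were not. Over all genes, 45.1% were higher and 0.907% at least 1.5-fold higher. Hypothalamus genes were higher in 9 of 11 members (median 0.21), with a summed level of 26.2 at 24 h and 14.5 at 8 h. Few of these genes stood at 1.5 times the array median or more in both profiles. They were 3 hypothalamus genes, all higher, and 2 choroid plexus genes, 1 higher and 1 lower. The vasopressin gene Avp (1.77), the oxytocin gene Oxt (1.69) and the thyrotropin-releasing hormone gene Trh (0.65) were the 3 at least 1.5-fold higher. Avp, at 9.97 at 24 h and 2.93 at 8 h, made the largest part of the difference between the hypothalamus sums. Oxt stood at 3.54 and 1.10. The melanin-concentrating hormone gene Pmch stood at 1.65 at 24 h and 1.11 at 8 h (0.56). Of the other defining genes, Hcrt (0.824 at 24 h, 0.880 at 8 h), Agrp (0.937 and 0.907) and Sim1 (0.872 and 0.879) lay below the array median in both profiles. Choroid plexus genes were higher in 10 of 12 (median 0.24, summed level 97.9 at 24 h and 74.2 at 8 h), and in that sum the transthyretin gene Ttr alone stood at 30.1 at 24 h and 5.10 at 8 h (2.56), more than the whole difference between the sums. Sostdc1, a secreted signalling inhibitor gene, was the other of 2 at least 1.5-fold higher, at 2.06 and 0.985 (1.06), followed by the homeobox gene Otx2 at 1.23 and 0.828 (0.58). Kl, Folr1, Clic6, Kcnj13 and Cldn2 were under the array median in both profiles, and the brightest member, Enpp2, differed by -0.09. Thalamus genes were higher in 2 of 6 (median -0.12, summed level 15.5 and 18.2 at 24 h and 8 h), with Prkcd at -0.41. Of the striatal cholinergic interneuron list 2 genes were measured, Slc18a3 (1.54 at 24 h, 1.44 at 8 h) and Slc5a7 (1.03 and 0.901). Of the midbrain dopamine neuron list 6 were measured, 3 higher and 3 lower. The dopamine synthesis gene Th stood at 1.26 at 24 h and 1.55 at 8 h (-0.30) and Aldh1a1 at 11.7 and 16.3 (-0.48), while the transporter genes Slc6a3 and Slc18a2 and the transcription factor gene Pitx3 lay between 0.774 and 0.812 in both profiles. The summed levels add different probes, whose levels are not comparable with each other. The part of any of these regions or cells in the levels of the 9 genes was not tested.

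**Figure D4:**
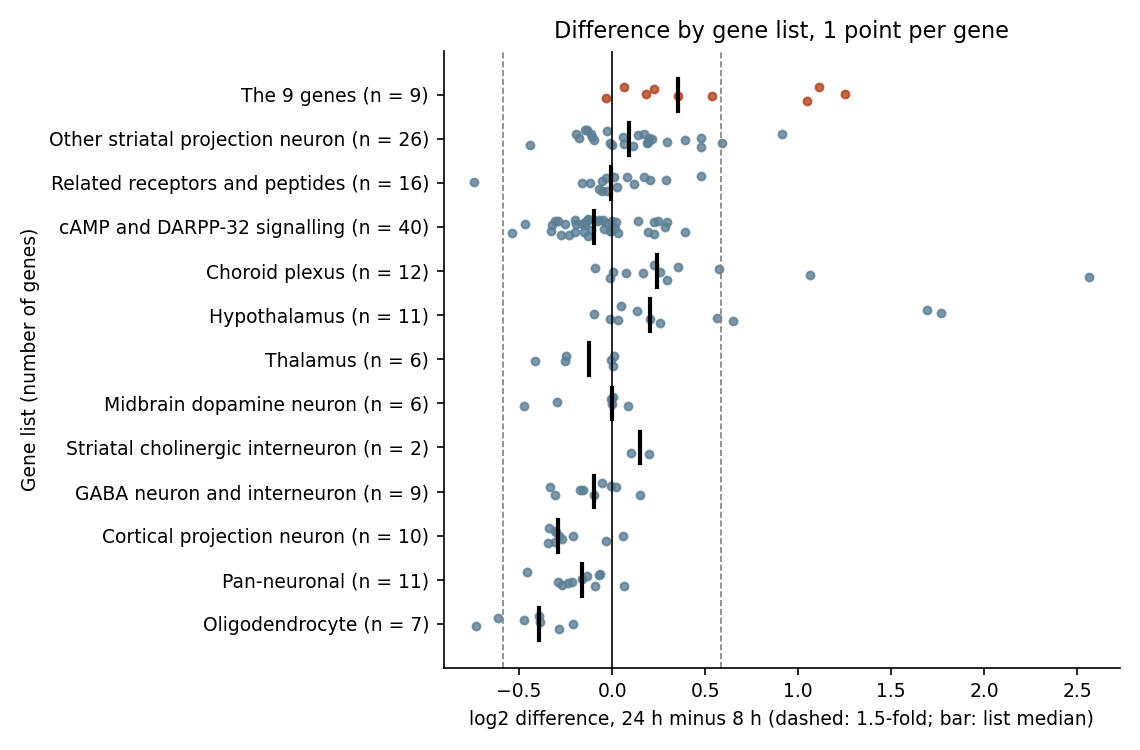
The log2 difference, 24 h minus 8 h (x axis), of every measured gene of each list (1 point per gene, jittered vertically), with the list median as a black bar and dashed lines at 1.5-fold. The 9 genes (top, median 0.35) were selected on this difference. The other striatal genes have a median of 0.09, cortical projection neuron genes -0.29 and hypothalamus genes 0.21.

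Over the 2 profiles, likeness to a gene was described as the distance in the plane of log2 level at 24 h and log2 level at 8 h. Among the 13336 other genes the nearest to Adora2a were Cyba, a subunit of the phagocyte NADPH oxidase (distance 0.17), Lcp1, the actin-bundling protein of white blood cells (0.17), and Lcn2, the acute-phase protein lipocalin-2 (0.28). Cyba stood at 17.3 at 24 h and 7.01 at 8 h. The nearest to Drd2 were Dpp6 (0.01), Wdr26 (0.02) and Trrap (0.02). The measure rests on 2 values per gene, which also chose Adora2a, and on levels of different probes, which are not comparable, so nothing is read from it.

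RefSeq sequence before the annotated start (assembly GRCr8) was at hand for 6 of the 9 genes, in 7 windows of 250 bases, since Pde10a has 2 starts. Adora2a, Penk and Ppp1r1b were not matched. The windows are shown for Rgs9 and Tac1, which differed at least 1.5-fold, for Pde10a and Pdyn, which differed less, and for Drd2, which lay near 0. All run 5′ to 3′ on the strand of the gene, and those of 250 bases end 1 base before its start. Capitals mark TGACG, the core of the cAMP response element, GGGCGG, the GC box, and TATAAA, the TATA box, searched on both strands and printed as their reverse complement where they lie on the other strand. Of Tac1 only the 30 bases around its TGACG match are given.
Rgs9, chr10:94770388-94770637, minus strand: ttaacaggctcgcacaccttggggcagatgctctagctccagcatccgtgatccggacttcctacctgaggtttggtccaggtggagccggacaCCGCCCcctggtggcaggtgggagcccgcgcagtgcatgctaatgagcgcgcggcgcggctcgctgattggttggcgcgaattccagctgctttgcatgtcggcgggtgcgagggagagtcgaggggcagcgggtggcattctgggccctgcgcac
Tac1, chr4:36645365-36645394, plus strand: tccctaaaattgCGTCAtttcgaacccaat
Pde10a, chr1:54765669-54765918, minus strand: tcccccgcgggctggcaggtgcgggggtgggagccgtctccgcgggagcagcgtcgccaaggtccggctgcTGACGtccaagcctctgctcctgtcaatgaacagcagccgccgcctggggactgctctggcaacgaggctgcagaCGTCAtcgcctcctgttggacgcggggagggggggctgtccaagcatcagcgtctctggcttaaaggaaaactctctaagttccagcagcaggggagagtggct
Pdyn, chr3:137366504-137366753, minus strand: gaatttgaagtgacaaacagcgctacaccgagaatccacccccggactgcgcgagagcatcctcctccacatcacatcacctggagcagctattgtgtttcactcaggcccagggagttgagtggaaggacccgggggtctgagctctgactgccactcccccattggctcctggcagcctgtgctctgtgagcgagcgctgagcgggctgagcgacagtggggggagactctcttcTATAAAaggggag
Drd2, chr8:58605153-58605402, plus strand: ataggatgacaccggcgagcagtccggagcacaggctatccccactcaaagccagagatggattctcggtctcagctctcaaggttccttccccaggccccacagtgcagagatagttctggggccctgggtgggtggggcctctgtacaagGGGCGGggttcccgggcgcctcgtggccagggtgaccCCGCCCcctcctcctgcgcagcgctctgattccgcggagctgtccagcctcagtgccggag

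The core TGACG was in 2 of the 7 windows, once in Tac1 (first base 206 before the start) and at 2 places in the upstream Pde10a window (179 and 104 before the start). It was in 18.2% of all 33469 promoter windows of that length. The full element TGACGTCA, which holds the core on both strands, was in 0 of the 7 and 1.59% of all. The GC box was in 4 of the 7 (Rgs9, Drd2, Adcy5 and the downstream Pde10a start) and 30.5% of all, and the TATA box in 1, Pdyn, and 12.9% of all. A match describes letters and says nothing on binding. Genes with a large difference (Rgs9) and with a difference near 0 (Drd2) both held a GC box, and TGACG stood in Tac1 at 1.11 and in Pde10a at 0.35. Whether these letters go with the size of the difference was not tested.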

How the data were processed

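The authors deposited linear intensities for 22523 probes in 24 columns, 1 per array. Their background correction, scaling and normalization are not given in the sources used here, and no genome build is named for them. Non-normalized values in 24 other columns, headed by running numbers, match no sample by name and were not used. The planned comparison of time points was described with no test, because the columns of a time point are 1 profile. Each column was divided by its median, columns of a time point were averaged, and log2 of the 24 h over the 8 h profile was taken. Probes were named from the platform annotation (13793 with 1 symbol, 0 with several, 8730 unnamed here). Where a gene had several probes, the brightest stood for it. Outside the 9 genes, up to 4 genes per list were named by largest difference at 1.5 times the array median in both profiles, with close relatives of the 9 genes, and further list members were named after their values were seen. The 9 genes and all lists were chosen with earlier results of these data known. The profile step was run on simulated columns, each made as 1 profile times 1 factor without noise. That checks the code and says nothing on the error of the data. Alternatives used limma 3.58.1 in R 4.3.3, pandas 2.3.3 and Python 3.11.15. The number of arrays adds no precision here, since the columns of a time point are 1 profile.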

Additional observations from a re-analysis of the deposited data

Results flagged for a closer look

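On the 4 treatment arrays of 24 h, the Adora2a intensity of replicate 2 (1857) lay apart from the others (1629, 1631 and 1596). Its gap to the nearest was a fraction of 0.866 of the whole range of the group, above the limit of Dixon's test. The array factor is common to all probes, so the same gap holds for each of the 9 genes, and it does not enter the levels, which are divided by the array median. Chance marks about 1 in 20 groups of this kind, and 6 groups were examined.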

How the results depend on the processing

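Under 5 other scalings (the 75th percentile of each column, quantile normalization, cyclic loess, normexp with an offset of 50 followed by quantile normalization, and the 1st percentile subtracted before setting a floor of 8), each of the 9 genes moved by less than 0.1 log2 from its value with median scaling. The range over these scalings was 1.25 to 1.34 for Adora2a, 1.11 to 1.20 for Tac1, 1.05 to 1.14 for Rgs9, 0.54 to 0.62 for Penk, 0.35 to 0.44 for Pde10a, 0.23 to 0.32 for Pdyn, 0.18 to 0.28 for Adcy5, 0.07 to 0.13 for Ppp1r1b and -0.05 to 0.04 for Drd2. The number of genes at least 1.5-fold higher was 3 or 4 of 9, and the number higher by any amount 8 or 9. Of all 22523 probes, 139 were at least 1.5-fold higher with median scaling. Subtraction of the 1st percentile gave 828 such probes, and the remaining scalings gave 174 to 195. With median scaling, 45.1% of all genes were higher by any amount. The median over the 9 lay between 0.35 and 0.44, and that of the other striatal genes between 0.09 and 0.15. Over all 13337 genes the median lay between -0.02 and 0.04. Restricting the other striatal genes to those at 1.5 times the array median was chosen after seeing the data and gave 0.18. All 9 genes remained when probes below the median of mean level were left out. Leaving out any replicate number or using 1 slide moved no value by more than 6.8e-08, which follows from the columns being 1 profile. No paired analysis was possible because no result comes from a test and the columns of a time point are 1 profile. Of the values of single other striatal genes, 9 moved by 0.1 log2 or more, 8 of them away from 0 on subtraction of the 1st percentile (Pde7b to -0.63, Isl1 to 0.60, Drd1 to 0.64, Rxrg to 1.08 and others), and Rarb to 0.26 with the mean of its probes. Signal near the array median limits the dim genes, and no array carries an error for any single gene.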
